A study of Mus musculus with 68 samples.

Results

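The second pharyngeal arch (PA2) was compared with the first (PA1) in wildtype mouse embryos at stage E10.5, named for the days after conception, using 6 of the 68 RNA-seq libraries of the study. The libraries are all those that carry these labels: 3 of PA2 and 3 of PA1, both arches of each embryo carrying the same replicate number, so that the comparison rests on 3 pairs. The study sequenced polyadenylated RNA of both arches at 4 stages from E9.0 to E10.5, from wildtype embryos and from embryos labelled Hoxa2-/-. All embryos were of the strain CBA/Ca/J x C57BL/10, each library came from the arch tissue of a single embryo, and the arches were dissected by hand. The E10.5 embryos compared here carried no named allele or treatment, and the labels do not say how much of the upper jaw swelling was kept with PA1. Wildtype embryos of the earlier stages, and the 6 libraries labelled Hoxa2-/- at E10.5, are compared below to show where the E10.5 wildtype arches differ. All 68 libraries also entered the main fit, so the spread behind each test comes from all stages and both labels.

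The pharyngeal arches are swellings beside the embryonic throat, each with a core of mesoderm, a filling of neural crest mesenchyme and a cover of ectoderm outside and endoderm inside. PA1 forms the jaws and part of the middle ear, and PA2 forms the stapes, part of the hyoid bone and the muscles of facial expression, and also contributes to the outer ear. Neural crest of PA1 carries no Hox expression, whereas that of PA2 expresses Hoxa2, a homeobox transcription factor gene whose loss turns PA2 skeleton into a mirror copy of PA1 elements. At this stage, the mesenchyme of an arch is being divided into regions with different transcription factors before cartilage and bone form.

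The 6 libraries held 17244704 to 18700596 reads, and 3 reads, taken as the floor of a level, correspond to 0.155 to 0.166 CPM, the deposited unit of reads scaled by library size. Same-sex agreement, read from Xist against Y-linked genes, held between both arches in 3 of 3 embryos. The markers of arch identity stood on the side that their labels give. Hoxa2 (ENSMUSG00000014704, chr6:52162417-52164831, build GRCm38) stood at 0.926, 0.58 and 0.052 CPM in PA1 and at 57.2, 63.3 and 54.5 in PA2 of embryos 1, 2 and 3. Pitx1, a homeobox gene of the lower jaw and hindlimb (ENSMUSG00000021506, chr13:55825051-55836192), stood at 41.0, 61.1 and 42.9 CPM in PA1 and at 0.259, 1.00 and 0.61 in PA2. Lhx6, a LIM homeobox gene of the jaw mesenchyme (ENSMUSG00000026890, chr2:36081953-36105408), stood at 27.2, 41.1 and 35.1 CPM in PA1 and at 2.02, 2.00 and 2.38 in PA2. For none of these 3 genes did the arches overlap.

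The arches were compared in a limma fit over all 68 libraries, with the embryo as a block and Benjamini-Hochberg adjustment over all tested genes. Between them, 421 of 18428 tested genes (2.28%) differed at an adjusted p under 0.05. Of these, 241 (1.31% of the tested genes) were higher in PA2 and 180 (0.977%) were lower. Without the block, in a fit that ignores that both arches come from the same embryo, 280 genes passed, 160 higher and 120 lower. Leaving out embryo 1, 2 or 3 left 235, 245 or 225 genes. With only these 6 libraries in the fit, 1320 genes passed, 582 higher and 738 lower, so the share that was higher in PA2 went from 57.2% to 44.1%. The sign was the same in all 3 pairs for 419 of the 421 genes, and 406 of them (96.4%) had no overlap between the 3 PA1 and the 3 PA2 libraries. Over all tested genes, 8.33% had all PA2 libraries above all PA1 libraries and 9.6% the reverse.

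**Figure D1:**
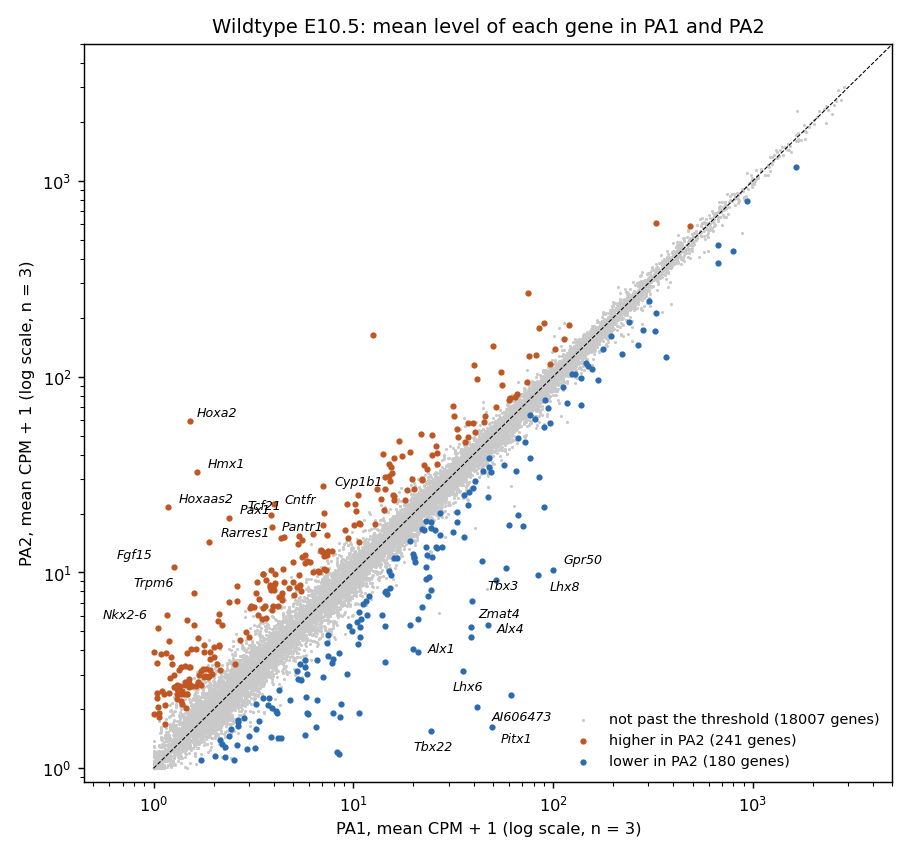
Mean level of each of the 18428 tested genes in PA1 (horizontal) and PA2 (vertical) of 3 wildtype E10.5 embryos, as CPM + 1 on log axes, where the dashed line marks equal levels. Genes higher in PA2 (241, orange) and lower in PA2 (180, blue) leave the band of the other genes, and 22 of the 24 genes with the largest differences that the naming rule took carry their symbols.

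Most differences were moderate. The median absolute log2 difference, on the log2(CPM + 1) scale that understates the change of low genes, was 0.90 among the called genes and 0.10 over all tested genes. A log2 difference of at least 1 was reached by 174 genes (0.944% of the tested genes), of which 69 were lower in PA2. At a log2 difference of at least 2 the order turned, with 13 genes higher and 24 lower. Protein-coding genes made up 89.6% of the called genes and 75.5% of the tested genes, and 44 called genes were not protein coding. In bulk tissue, fewer cells of a type and less RNA per cell cannot be told apart.

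The largest differences toward PA1 included genes of jaw and face mesenchyme. Pitx1 led, with a log2 difference of -4.93 ± 0.21 (SE, adjusted p = 1e-17). AI606473 (log2 difference -4.34), whose function is not described here, lies 162 bases from Lhx8 on chromosome 3.

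Tbx22, a T-box gene whose loss causes cleft palate, stood at 21.8, 23.8 and 25.2 CPM in PA1 and 0.259, 0.79 and 0.61 in PA2, a log2 difference of -4.0 ± 0.26. Lhx6 and Lhx8, LIM homeobox genes that act together in the jaw and palate, differed by -3.48 and -3.14. Gpr50, a gene for an orphan receptor related to the melatonin receptors, stood at 98.9 ± 9.76 CPM in PA1 and 9.31 ± 1.84 in PA2 (SD, n = 3 each). Alx4 (-3.12), Alx1 (-3.06), Zmat4 (-2.89) and Tbx3 (-2.48) were also among the 12 genes that the naming rule took on this side, of which 10 are described. In each of these 10 genes, taken for large differences in these same libraries, the lowest PA1 library was above the highest PA2 library.

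Toward PA2, Hoxa2 led with a log2 difference of 5.33 ± 0.15 (adjusted p = 3e-22). Hmx1, a homeobox gene required for the outer ear (ENSMUSG00000067438, chr5:35389108-35399730), stood at 0.0545, 0.896 and 0.989 CPM in PA1 and 32.3, 33.7 and 29.2 in PA2. Its log2 difference was 4.36 ± 0.31 (adjusted p = 8.9e-12), and the arches did not overlap. Hoxaas2, an RNA from beside Hoxa2, differed by 4.20, with 0.436, 0.0527 and 0.052 CPM in PA1, near or under the floor, and 18.1, 25.3 and 18.6 in PA2. The strand used in counting is not given in the sources used here, so reads of overlapping genes cannot be told apart.

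Fgf15, a fibroblast growth factor gene of the pouches, differed by 3.07, and Pax1, a paired box gene of pharyngeal pouch endoderm, by 3.00. Rarres1, a gene named for its response to retinoids, differed by 2.92 but varied between embryos, at 18.6, 5.64 and 15.6 CPM in PA2 and 0.0545, 0.475 and 2.19 in PA1. Cntfr, the gene for the receptor subunit of ciliary neurotrophic factor (ENSMUSG00000028444, chr4:41657498-41697089), stood at 3.27, 2.74 and 2.97 CPM in PA1 and 15.4, 25.5 and 23.3 in PA2, a log2 difference of 2.46 ± 0.34 (adjusted p = 1.2e-05). Trpm6 (2.27), a magnesium channel gene, Nkx2-6 (2.21), a homeobox gene of pharyngeal endoderm, and Tcf21 (2.13), a factor gene of head muscle precursors, followed. The last of the 12 were the noncoding RNA Pantr1 (2.03) and Cyp1b1 (1.96), a cytochrome P450 gene. Pantr1 stood at 4.55 CPM in PA2 of embryo 1, against 26.7 and 24.7 in the other PA2 libraries and 2.51 to 3.22 in PA1. All 22 described genes kept their call under every alternative run.

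**Figure D2:**
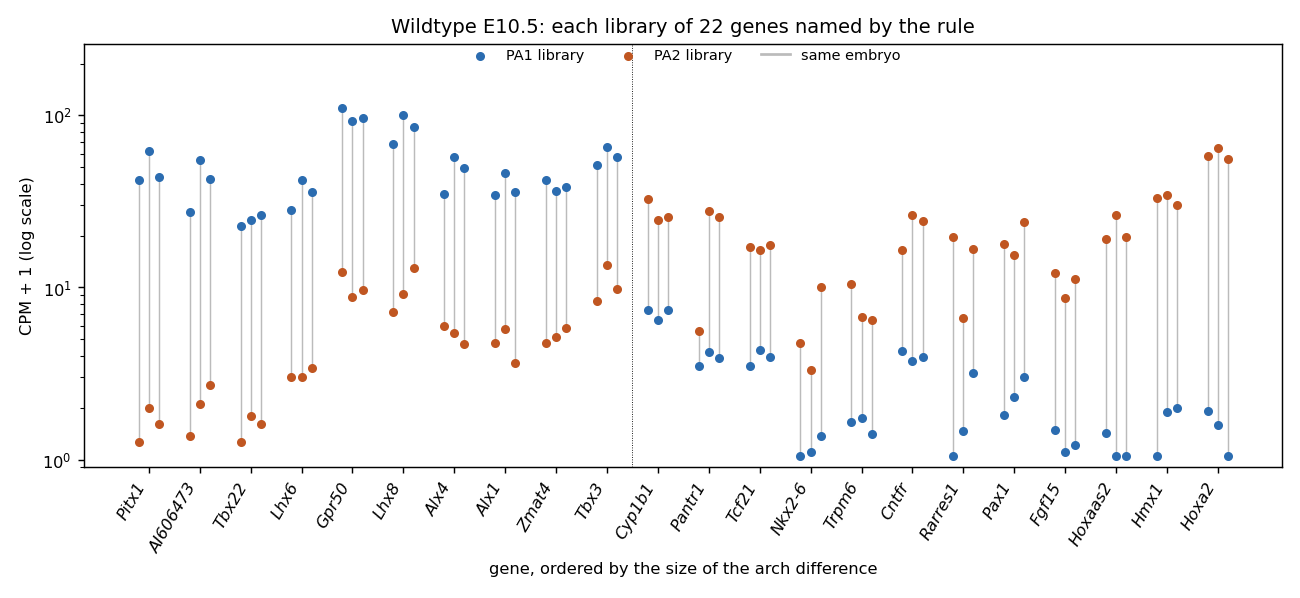
CPM + 1 on a log axis for 22 of the 24 genes taken by the naming rule, with PA1 (blue) and PA2 (orange) of 1 embryo joined by a grey line and genes lower in PA2 left of the dotted line. Every line points the same way within a gene, as the naming rule required. The shortest line is Pantr1 in embryo 1, at 2.51 CPM in PA1 and 4.55 in PA2.

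Gene lists were then followed by role, each as a count of called members. Over all tested genes 2.28% were called, 1.31% higher and 0.977% lower in PA2, and the median log2 difference was -0.01. The median of a list is printed for some lists only. The gene lists without a printed median had medians from -0.18 (hedgehog) to 0.51 (Dlx). Hox genes set position along the body axis. Of 8 tested Hox genes and Hox antisense RNAs, 7 were higher in PA2 and none was lower, with a median of 1.56. Beside Hoxa2 and Hoxaas2 these included Hoxd1 (log2 difference 1.82), Hoxb2 (1.72), Hoxa3 (1.23) and Hoxb3os (1.16). The PA2 means of these 4 were low, from 1.44 CPM for Hoxa3 to 2.87 for Hoxb2, against 58.3 for Hoxa2, and these levels are not set per length. Hoxb1, normally a gene of the hindbrain, was at 0 to 0.436 CPM in PA1 and 0.0554 to 0.466 in PA2 and was not called.

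Meis, Pbx and Pknox genes encode the TALE homeobox cofactors that bind DNA together with Hox proteins. Only the Meis genes Meis1 and Meis2 passed among 9 tested members, both higher in PA2, against 1.31% of all tested genes. Meis1 stood at 79.0, 70.5 and 72.9 CPM in PA1 and at 273, 265 and 263 in PA2, a log2 difference of 1.83 ± 0.14 (adjusted p = 2.7e-11). Meis2 stood at 85.8, 79.3 and 85.9 CPM in PA1 and at 175, 182 and 169 in PA2, a log2 difference of 1.06 ± 0.07 (adjusted p = 1.6e-12). For both genes, the spread between embryos was small beside the arch difference. Among the members that did not pass, Pbx2 had a log2 difference of -0.42 and Pknox1 of 0.29. The repressor genes Zfp703 (1.14) and Zfp503 (0.86) were also higher in PA2, and without embryo 3 the adjusted p of Zfp503 was 0.054. Of 12 tested genes that earlier work had tied to Hoxa2, 4 were higher in PA2 (Meis1, Meis2, Zfp703 and Zfp503) and 3 lower (Pitx1, Alx4 and Msx1), with a median of -0.18, a list chosen with such results in view.

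Stretches of the Hoxa2 and Cntfr promoters are shown because both genes were among the largest differences toward PA2 and their promoter windows, from 250 bases before to 50 after the RefSeq start, hold motifs named after Hox, Pbx and Meis factors. Build GRCm38.p6 was used, both genes lie on the minus strand, and sequences are printed 5′ to 3′ on the gene's strand with the match in capitals. The motifs searched on both strands were TGATNNAT, the Hox and Pbx pair, and TGACAG, the Meis type. The first 2 windows, chr6:52164909-52164968 and chr6:52164844-52164901, belong to Hoxa2, and the others, chr4:41696127-41696186 and chr4:41689293-41689350, belong to 2 RefSeq starts of Cntfr. A match is a description of letters, not evidence of binding.
Hoxa2, TGATNNAT on the opposite strand: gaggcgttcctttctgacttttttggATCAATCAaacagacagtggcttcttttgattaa
Hoxa2, TGACAG: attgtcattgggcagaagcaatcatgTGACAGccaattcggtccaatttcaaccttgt
Cntfr, TGATNNAT: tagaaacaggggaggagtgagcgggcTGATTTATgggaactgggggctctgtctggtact
Cntfr, TGACAG on the opposite strand: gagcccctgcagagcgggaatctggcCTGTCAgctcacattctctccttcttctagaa
TGATNNAT was present in 7.04% of 213 promoters of genes higher in PA2, in 6.10% of 164 promoters of genes lower in PA2, and in 4.45% of 14540 promoters of all tested genes. TGACAG was present in 14.1%, 18.3% and 16.8% of the same promoters. These promoters belong to 164 genes higher in PA2, 127 genes lower in PA2 and 11363 tested genes. A gene with several starts can therefore count more than once, and the TGATNNAT of Cntfr lies in overlapping windows of different starts. No test was run on these shares.

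Homeobox genes of the jaw, on the side of PA1, were mostly lower in PA2. Of 10 tested members 6 were lower and 2 higher, with a median of -1.57. Beside Pitx1, Lhx6 and Lhx8, the lower ones included Msx2 (log2 difference -2.10) and Msx1 (-1.54), factors of distal arch growth. Msx1 stood at 320, 416 and 360 CPM in PA1 and 132, 102 and 142 in PA2. The 2 members that were higher in PA2, Isl1 (0.97) and Emx2 (1.17), are used in the epithelium of the lower jaw and in the ear and shoulder region. Isl1 stood at 29.2 to 32.6 CPM in PA1 and 52.3 to 67.4 in PA2, and its adjusted p was 0.06 without embryo 1 and 0.076 without embryo 3. Emx2 had an adjusted p of 0.27 without the block. Gsc (-0.31) was not called and its arches overlapped.

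Paired-type homeobox genes Alx, Prrx and Shox2 mark facial and limb mesenchyme. All 6 tested members were lower in PA2, with a median of -1.99. Alx4 stood at 33.8, 56.5 and 48.7 CPM in PA1 and at 4.97, 4.42 and 3.71 in PA2, and the arches did not overlap for Shox2 (-1.53) either. Prrx1 (-0.75) and Prrx2 (-0.44) had the smallest differences. Without the block, adjusted p was 0.16 for Prrx1 and 0.11 for Prrx2, and without 1 embryo it was 0.14 to 0.31 for Prrx2.

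The Dlx genes pattern an arch from its base to its tip, and endothelin signalling through Ednra sets the lower part. Of 8 tested members of the Dlx list, Dlx3 (log2 difference 1.2) and Dlx4 (1.42) were higher in PA2 and none was lower. Over all tested genes the shares were 1.31% and 0.977%. Dlx3 stood at 46.3, 37.9 and 38 CPM in PA1 and at 110, 71.7 and 106 in PA2. Both calls rested on the pairing and on single embryos: adjusted p was 0.13 and 0.055 without the block, 0.11 and 0.078 without embryo 1, and 0.19 for each without embryo 3. Dlx5 (-0.02), Dlx6 (0.26), Dlx1 (0.21) and Dlx2 (0.28) were not called.

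None of the 7 tested endothelin and Hand genes was called. Hand1, a factor gene of the most distal arch, stood at 49.7, 40.8 and 46.3 CPM in PA1 and at 6.98, 7.90 and 6.93 in PA2, so that the arches did not overlap. Its log2 difference of -2.49 had an adjusted p of 0.078 in the fit over all libraries and 3.4e-15 with the 6 libraries alone. Barx1, a homeobox gene of the jaw list, gave a like pattern. It stood at 102, 140 and 107 CPM in PA1 and 50.8, 60.4 and 62.6 in PA2, with an adjusted p of 0.48 over all libraries and 3e-09 with these 6. The fit over all libraries takes the spread of each gene from all stages. With the 6 libraries alone 2 residual degrees of freedom are left, so those p-values lean on the spread shared across genes. Hand2 (-0.29), Edn1 (0.46) and Ednra (-0.10) had overlapping arches.

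**Figure D3:**
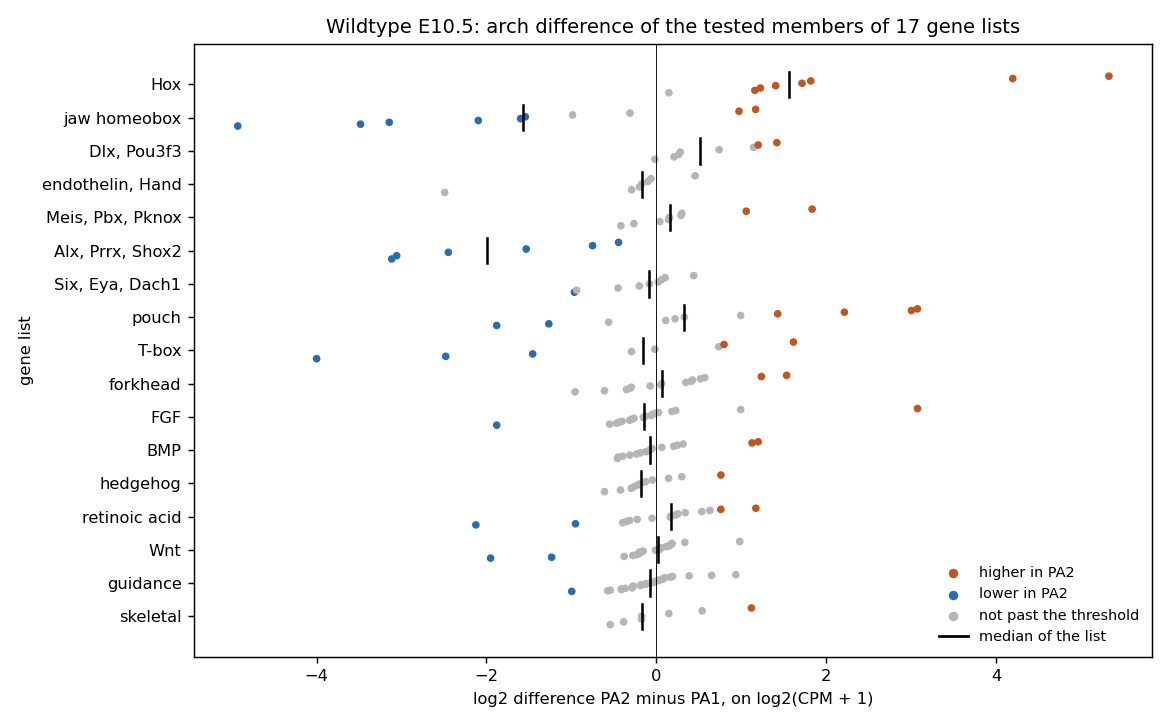
Log2 difference of PA2 minus PA1 for each tested member of 17 gene lists (points) with the median of each list (black bar). Points right of 0 are higher in PA2, and called members are orange or blue. Hox genes lie to the right and the Alx, Prrx and Shox2 genes to the left, while most members of the signalling lists sit near 0.

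Genes of the pharyngeal pouches, the endodermal pockets between arches, split. Of 11 tested members 4 were higher in PA2, Fgf15, Pax1, Nkx2-6 and Pax9 (log2 difference 1.43), and 2 were lower, Fgf8 (-1.88) and Pax3 (-1.27). Over all tested genes 1.31% were higher and 0.977% lower. Pax1 stood at 0.817, 1.32 and 2.03 CPM in PA1 and at 16.9, 14.4 and 23.0 in PA2. Fgf8, a growth factor gene of the arch epithelium, stood at 22.8, 17.2 and 20.5 CPM in PA1 and at 5.90, 3.53 and 4.99 in PA2. Pax3 was low in both arches, and its adjusted p was 0.17 without embryo 1 and 0.20 without embryo 2.

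T-box genes also split, with 2 of 8 tested members higher in PA2 and 3 lower, against 1.31% and 0.977% of all tested genes. Tbx22, Tbx3 and Tbx2 (log2 difference -1.46) were the lower ones. Tbx1 (0.80), whose loss disrupts the pharyngeal apparatus, and Tbx15 (1.61) were the higher ones. Tbx1 stood at 5.94 to 6.92 CPM in PA1 and at 10.4 to 13.0 in PA2. Tbx15 reached 13.0 CPM in PA2 of embryo 2, against 4.76 and 4.88 in the other PA2 libraries, and had an adjusted p of 0.086 without that embryo. Adjusted p of Tbx2 was 0.096 without embryo 2 and 0.14 without embryo 3. For Tbx1 it was 0.17, 0.24 and 0.19 without embryo 1, 2 and 3, and 0.35 without the block.

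The next 3 lists held few called members, and over all tested genes 1.31% were higher and 0.977% lower in PA2. Among forkhead genes 2 of 15 tested members, Foxi2 (log2 difference 1.53) and Foxc1 (1.24), were higher in PA2 and none was lower. Foxc1, a gene of arch and ocular mesenchyme, stood at 14.1, 12.3 and 16.1 CPM in PA1 and at 35.5, 37.6 and 30.8 in PA2. Among 9 genes of the Eya, Dach1 and sine oculis families, Eya2 (-0.96) alone passed, at 22.7 to 26.5 CPM in PA1 and 9.98 to 16 in PA2. Of 7 skeletal genes, Runx1 (1.12) was higher in PA2, with an adjusted p of 0.16 without embryo 1 and 0.10 without embryo 2. Sox9, the cartilage factor, stood at 73.4 ± 4.62 CPM in PA1 and 107 in PA2 and was not called (0.54, adjusted p = 0.11).

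Of 94 tested members of 5 signalling lists 8 were called (8.51%), against 2.28% of all tested genes. Of 18 FGF genes and Sprouty regulators, Fgf15 was higher and Fgf8 lower. Of 16 BMP pathway genes, the antagonist gene Grem1 (log2 difference 1.13) and the modulator gene Bmper (1.2) were higher in PA2. Without embryo 2, adjusted p was 0.14 for Grem1 and 0.10 for Bmper, and for Bmper it was 0.084 without embryo 3 and 0.054 without the block. Of 11 hedgehog genes, the co-receptor gene Boc (0.76) was higher, with an adjusted p of 0.22 without embryo 2 and 0.16 without embryo 3. Of 20 Wnt genes, the R-spondin gene Rspo2 (-1.95), an enhancer of Wnt signalling, and Dkk1 (-1.23), an inhibitor, were lower in PA2. Rspo2 stood at 40.1, 52.5 and 36.9 CPM in PA1 and at 8.43 to 12.3 in PA2. Adjusted p of Dkk1 was 0.055, 0.15 and 0.28 without embryo 1, 2 and 3. Of 29 guidance genes, Plxna2 (-1.0) was lower, with an adjusted p of 0.16 to 0.23 without 1 embryo.

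Retinoic acid patterns the pharynx and is made by Aldh1a enzymes. Of 16 tested genes of its synthesis, breakdown and response 2 were higher in PA2, Nr2f1 among them, and 2 lower. Over all tested genes the shares were 1.31% and 0.977%. Aldh1a2, a synthesis enzyme gene, stood at 10.4, 17.2 and 12.7 CPM in PA1 and at 1.4, 4.48 and 1.61 in PA2, a log2 difference of -2.12 ± 0.34 (adjusted p = 7.9e-05). Rarb, a receptor gene that retinoic acid induces, was also lower (-0.95), with an adjusted p of 0.096 without embryo 2. Nr2f1 (1.17), a COUP-TF receptor gene, stood at 30.1, 32.8 and 28.7 CPM in PA1 and 66.2, 69.1 and 74.7 in PA2. Rdh10, a retinol dehydrogenase gene of retinoic acid synthesis that is not in the list and is named after its values were seen, was on the other side from Aldh1a2. It stood at 22.3, 23.6 and 18.7 CPM in PA1 and at 31.2, 44.2 and 27.9 in PA2, a log2 difference of 0.63 ± 0.16 (adjusted p = 0.022), and it was called in this direction at all 4 wildtype stages. Its adjusted p at E10.5 was 0.071, 0.29 and 0.12 without embryo 1, 2 and 3.

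Markers of cell types that a dissected arch could hold were summed over each list. Arch mesenchyme markers, among them Twist1 and Pdgfra, summed to 715 to 825 CPM in PA1 and 682 to 803 in PA2, and 1 of 8, Prrx1, was called. No tested marker of endothelium (10), red cells (12), macrophages (9), endoderm (7), ganglion neurons (16), hindbrain and otic tissue (3), crest and glia (6) or yolk sac (7) was called. Over all tested genes 2.28% were called, so lists of this size would hold few calls at that share. Red cell markers summed to 5857 CPM in PA1 and 4955 in PA2 of embryo 2, against 7567 to 8371 in the other 4 libraries. Crest and glia markers summed to 59.5 to 71.9 CPM in PA1 and 78.0 to 91.0 in PA2, with no overlap. The part of any of these lists in the gene differences was not tested.

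Of 12 surface epithelium markers, Krt14 (log2 difference -2.46) and Trp63 (-0.69) were lower in PA2. Krt14, a keratin gene of basal skin cells, stood at 17.8, 21.2 and 21.5 CPM in PA1 and at 2.28, 4.0 and 2.44 in PA2. Trp63 had an adjusted p of 0.26 without embryo 3 and 0.25 without the block. The sum of the list was 577 to 669 CPM in PA1 and 475 to 531 in PA2, which did not overlap, while Epcam stood at 66.2 CPM in PA1 and 69.2 in PA2 and Cdh1 at 96.4 and 93.5. Fgf8, an epithelial gene, was lower in PA2 beside it, and the part of epithelium in that difference was not tested.

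Head muscle genes split. Of 8 tested members 2 were higher in PA2, Tcf21 (log2 difference 2.13) and Myf5 (0.71), and 2 were lower, Tlx1 (-0.89) among them. Tcf21 stood at 2.51, 3.32 and 2.97 CPM in PA1 and at 16.3, 15.4 and 16.7 in PA2. The arches did not overlap for Tcf21. Myf5, the muscle determination gene, had an adjusted p of 0.18 without embryo 2, 0.66 without embryo 3 and 0.23 without the block, and Tlx1 of 0.076 to 0.65 without 1 embryo and 0.076 without the block. The median log2 difference of the head muscle list was 0.43, while its sum lay on the other side, at 97.4 to 110 CPM in PA1 and 68.3 to 81.0 in PA2, with no overlap. The heart list summed to 38.2 to 41.7 CPM in PA1 and 64.5 to 75.3 in PA2, of which Isl1 made up most, and Tnnt2 stood at 0.265 CPM in PA1 and 0.123 in PA2.

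**Figure D4:**
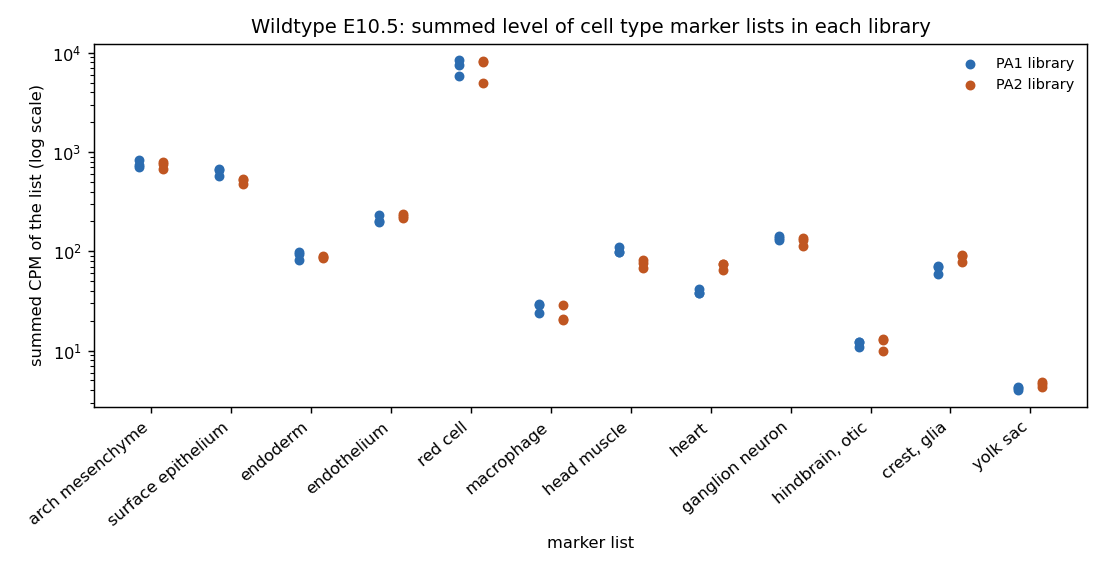
Summed CPM of 12 cell type marker lists in each of the 6 libraries, on a log axis, with PA1 in blue and PA2 in orange. The arches overlap for arch mesenchyme (715 to 825 CPM in PA1, 682 to 803 in PA2) and red cells. They separate toward PA2 for heart (38.2 to 41.7 CPM in PA1, 64.5 to 75.3 in PA2) and for crest and glia, and toward PA1 for head muscle and surface epithelium.

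Called genes often lay beside called genes of the same direction. Within 100 kb, 50 pairs of consecutive called genes were found, and 48 of them (96%) had the same sign, against 52.0% of 14588 such pairs among all tested genes. In 14 of the 50 pairs the genes overlap, so shared reads cannot be told apart there. Of the 36 pairs whose genes do not overlap each other, 34 had the same sign. Overlap was checked only within a pair, and some genes counted as apart lie inside another called gene, Meis1. The exceptions were Nkx2-9 (log2 difference -1.0) beside Pax9 (1.43) and Clic6 (-1.11) beside Runx1 (1.12). On chromosome 6 the run Hoxa2, Hoxaas2 and Hoxa3 was higher in PA2 throughout, and on chromosome 11 Dlx3, Dlx4 and Dlx4os (1.28) were. Both Meis genes had called noncoding neighbours, with 8430419K02Rik (1.47) 5508 bases from Meis1 and G630016G05Rik (0.82) 1386 bases from Meis2.

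The noncoding gene 3110099E03Rik (chr2:115493513-115527744) was named here after its values were seen because it lies in the chromosome 2 run with Meis2 (chr2:115863064-116065839). Another called gene lies between them. 3110099E03Rik stood at 12.6, 13.2 and 9.06 CPM in PA1 and at 162, 176 and 150 in PA2. Its log2 difference was 3.71 ± 0.18 (adjusted p = 6.8e-16). In PA2 it had means of 0.0923 CPM at E9.0, under the floor, 0.436 at E9.5 and 18 at E10.0. Its arch difference exceeded that at E9.0 by 3.70 and that at E9.5 by 3.60 (adjusted p = 8.6e-12 and 1.9e-11), while against E10.0 the adjusted p was 0.11, and 9.6e-08 with a pseudocount of 5. Next to Cntfr, Enho (0.89) was also higher in PA2.

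The stage comparison asked which arch differences at E10.5 were already present earlier. These contrasts are tests of the difference between arch differences, all of them use the same 6 E10.5 libraries, and the earlier stages rest on 4 or 5 pairs. Of the 421 genes, 171 (40.6%) were called in the same direction at E9.0, 207 (49.2%) at E9.5 and 278 (66.0%) at E10.0. The arches differed in 22.8%, 32.3% and 9.48% of tested genes at these stages. In the opposite direction 37, 24 and 2 genes were called. At all 4 stages 112 genes were higher in PA2 and 22 were lower.

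The arch difference itself differed from that at E9.0 for 1074 genes (5.83%), from that at E9.5 for 1267 (6.88%) and from that at E10.0 for 65 (0.353%). Without the block the first 2 counts were 617 and 503. Leaving out embryo 1, 2 or 3 gave 479, 667 or 602 genes against E9.0, 339, 896 or 349 against E9.5, and 39, 31 or 34 against E10.0. The wildtype E10.0 libraries differ from the E10.5 ones in another way: Ski stood at 26.3 to 54.8 CPM in all 6 E10.5 libraries and at 9.52 to 15.5 in all 10 E10.0 libraries, and Irf2bp2 at 26.6 to 40.5 and 7.36 to 13.5. At wildtype E9.0 and E9.5 Ski stood at 27.2 to 54.5 and 36.5 to 108 CPM, and Irf2bp2 at 26.9 to 56.4 and 37.2 to 82.6. Among the wildtype stages only E10.0 was thus low for both genes. Between E10.0 and E10.5, stage and any difference in library making cannot be told apart, while each arch difference is taken within a stage.

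Hmx1 in PA2 stood at a mean of 0.132, 1.32, 18.2 and 31.7 CPM from E9.0 to E10.5, with means of at most 1.49 in PA1. Its arch difference exceeded that at E9.0 by 4.46 ± 0.41 on the log2 scale (adjusted p = 9.7e-09) and that at E9.5 by 3.94 (adjusted p = 2e-07). Tbx22 in PA1 stood at 0.0313, 0.177, 4.43 and 23.6 CPM, and its arch difference was more toward PA1 than at E10.0 by 1.88 (adjusted p = 0.0027). Hoxa2 and Pitx1 differed between the arches at every stage.

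Tbx3 and Nkx2-6 in PA2 had higher means at the earlier stages. Tbx3 in PA2 stood at 45.4, 37.3, 17 and 9.55 CPM while PA1 stood at 45.7, 40.6, 56.5 and 56.9, and the arch difference was larger toward PA1 than at E9.0 by 2.39 (adjusted p = 0.00057). Nkx2-6 in PA2 stood at 80.7, 39.1, 16 and 5.04 CPM. Fgf4 stood at 17.1, 13.0, 5.46 and 0.0185 CPM in PA2, so that the E10.5 mean lay under the floor, and in PA1 it was at 0 in every library at E9.5, E10.0 and E10.5. The Fgf4 arch difference was lower at E10.5 than at E10.0 by 2.49 on the log2 scale (adjusted p = 0.0027), but edgeR on the recovered reads gave an adjusted p of 1. Dlx3 crossed over: it was higher in PA1 at E9.0, at 33.3 against 7.52 CPM in PA2, and higher in PA2 at E10.5, with a difference between the arch differences of 3.33 (adjusted p = 3.2e-07).

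**Figure D5:**
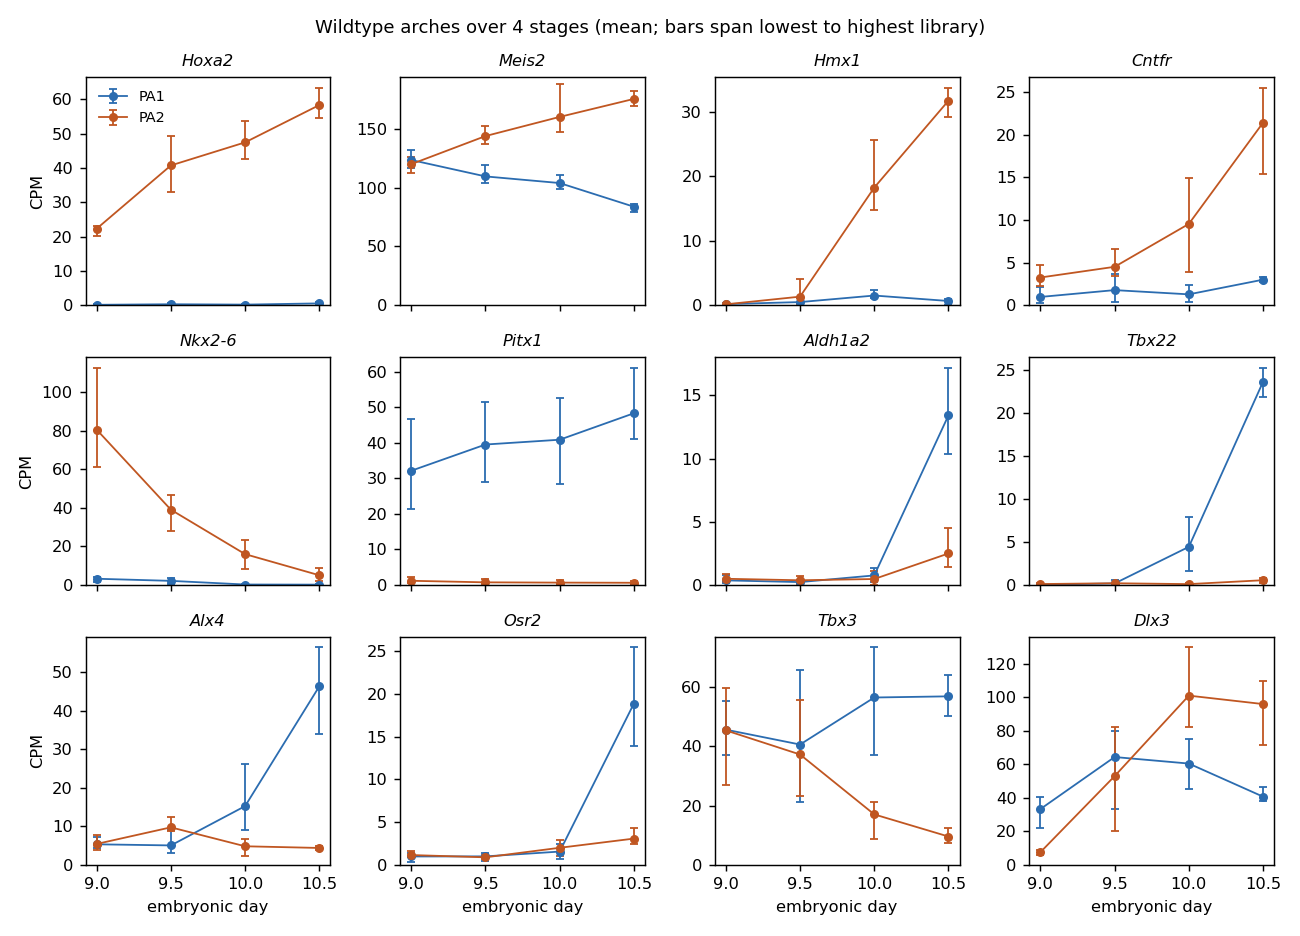
Mean CPM of 12 genes in wildtype PA1 (blue) and PA2 (orange) at 4 stages, with bars from the lowest to the highest library (3 to 5 libraries a point). Hoxa2 and Pitx1 are apart at every stage, Hmx1, Tbx22, Alx4 and Osr2 separate late, and Nkx2-6 in PA2 goes from 80.7 to 5.04 CPM.

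At E10.5 alone among the wildtype stages 76 genes were called, and for 13 of these the arch difference also differed from that at each earlier stage. The 8 of them lower in PA2 were Alx1 (log2 difference -3.06), Osr2 (-2.28), Aldh1a2 (-2.12), Shox2 (-1.53), Rxfp3 (-1.36), Dsc3 (-1.04), Mc4r (-0.84) and Rnd3 (-0.69). The 5 higher were Tcf24 (2.15), Nipal1 (1.09), 4930512H18Rik (0.87), Brdt (0.68) and Gnat3 (0.62). Tcf24 had E10.5 means of 0.0539 CPM in PA1, under the floor, and 4.18 in PA2. Alx1 in PA1 stood at 11.9, 5.56, 4.69 and 37.9 CPM at the 4 stages and in PA2 at 9.55, 6.90, 3.28 and 3.71. Osr2, a zinc finger gene of palate and tooth mesenchyme, stood in PA1 at 0.973, 0.983, 1.55 and 18.9 CPM and in PA2 at 1.14, 0.874, 1.99 and 3.06. Its arch difference was larger toward PA1 than at E10.0 by 2.52 ± 0.24 (adjusted p = 1.5e-07). Aldh1a2 stood at 0.757 CPM in PA1 at E10.0 and 13.4 at E10.5. For Alx1, adjusted p against E10.0 was 0.052 without embryo 2 and 0.074 without embryo 3.

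The same arches labelled Hoxa2-/- at E10.5 gave 474 called genes (2.57%). In the same direction 200 were shared, which is 47.5% of the wildtype list and 42.2% of the other, and none was opposite. Hoxa2 RNA was not lower under that label, with PA2 means of 132 CPM under it and 58.3 in wildtype. An RNA level per gene does not show whether protein is made, and the cause was not tested. Ski (9.28 to 14.3 CPM) and Irf2bp2 (7.62 to 11.9) in the 6 libraries labelled Hoxa2-/- lay below all 6 wildtype E10.5 libraries, so label and any difference in library making cannot be told apart.

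The arch difference differed between the labels for 10 genes (0.0543% of those tested), 5 in each direction. The difference was greatest for 3110099E03Rik, which stood at 3.31 CPM in PA1 and 6.29 in PA2 with the label Hoxa2-/-, against 11.6 and 162 in wildtype. Its arch difference was greater in wildtype by 2.96 ± 0.26 (adjusted p = 1.9e-08, and at most 0.00046 under the alternatives run). Pitx1 in PA2 stood at 6.18 CPM in the libraries labelled Hoxa2-/- against 0.623 in wildtype, and its arch difference in wildtype was more toward PA1 by 2.01 ± 0.29 (adjusted p = 0.00043), with an adjusted p of 0.23 without the block. Meis2 in PA2 had a mean of 111 CPM with the label Hoxa2-/- and 175 without it, and its arch difference was greater in wildtype by 0.87 ± 0.10 (adjusted p = 6.2e-06). Tle4, a corepressor gene, was lower in wildtype PA2 at 54.6 CPM than in PA1 at 89.1, and stood at 95.5 and 73.5 CPM with the label Hoxa2-/-. The difference between those Tle4 arch differences was -1.08, and its adjusted p was 0.12 without embryo 1 and 0.24 without embryo 3. For Meis1 (adjusted p = 0.22) and Hmx1 (adjusted p = 0.90) no difference between the labels was shown. Of the E10.5 genes of PA1, Osr2 stood at 18.9 CPM in wildtype PA1 and 5.32 in PA1 labelled Hoxa2-/-, Aldh1a2 at 13.4 and 3.88, and Shox2 at 5.58 and 1.98. Shox2 was among the 10 genes, while Osr2 and Aldh1a2 were not, and PA1 alone was not tested between the labels.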

How the data were processed

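Arches were dissected by hand, RNA was extracted with TRIzol, cDNA was made and amplified with SMART-seq v4, and libraries were made with Nextera XT, per the labels' protocols. Reads were processed with bcl2fastq 2.18, TopHat2 2.1.1 and R 3.3.2 on build mm10, per the submitters' processing notes. The counting program, annotation and strand setting are not given in the sources used here. PCR without molecular identifiers means that the floor covers counting error only.

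The authors deposited a table of 21948 genes and 68 libraries whose values are a normalized signal per gene. Its columns sum to 926298 to 1051959, and 100% of values are whole multiples of 1 read within 0.001 reads, so reads were recovered, at 8912251 to 20619153 per library. These values equal reads scaled by library size and TMM factors and are called CPM. Unscaled CPM had been planned for, and the planned tests were kept. Symbols and coordinates (GRCm38, the same assembly as mm10) came from GENCODE M21 for 21921 identifiers, and promoters from RefSeq tables of GRCm38.p6, which held 15 of 26 genes looked up.

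Genes with at least 1 CPM in at least 3 libraries were kept. limma 3.58.1 in R 4.3.3 was fitted to log2(CPM + 1) over all libraries with a trended prior, the embryo as a fixed block and 1 arch effect per label and stage (25 residual degrees of freedom), with two-sided tests, Benjamini-Hochberg adjustment over 18428 genes and a threshold of 0.05. Adjusted p-values without other mention are from this fit. Of 35 embryos 33 gave both arches, and only these bear on an arch difference. The series text says that both arches came from a single embryo. Deviations from group means correlated at 0.46, 0.42 and 0.38 within the 3 embryos and at -0.17 to -0.27 across them. Taking out group means pushes the values across embryos down where those within are positive, so they are not separate evidence of pairing. Replicates differed by a chi-square per degree of freedom of 5.85 to 11.2, so none was a copy of another. The script was tested on simulated data.

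Named genes were the 12 with the largest difference in each direction among called genes with a mean of at least 5 CPM in the higher arch, the same sign in 3 pairs and a symbol that is neither a Gm number nor ends in Rik. Called members of the 18 gene lists and 12 marker lists were added, and for each stage or label contrast the 5 largest in each direction. A few genes that these rules take are not reported here, but stay in the fits and counts. The compared libraries, the members and the lists were chosen with earlier results of these data known. Alternatives were pseudocounts of 0.25 and 5, no filter, at least 5 CPM, median-of-ratios scaling, no replicate block, only the compared groups, edgeR 4.0.16 on the recovered reads, and each embryo left out.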

Additional observations from a re-analysis of the deposited data

Results flagged for a closer look

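The arch difference at wildtype E10.5 was tested against that of each other group by an interaction term, and the counts of genes that passed are given with genes of large differences. Values are differences between log2 arch differences, negative where the arches at wildtype E10.5 lay further toward PA1. Genes with a Gm number or a symbol ending in Rik, and those under 5 CPM, were outside the naming rule, and those of them given here were named after their values were seen.

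Against wildtype E9.0, 1074 genes passed (3519 at an unadjusted p under 0.05). Further toward PA1 at wildtype E10.5 were Rgs4 (-4.44), Unc45b (-4.31), AI606473 (-4.25) and Tnnt2 (-4.21). Further toward PA2 were Hmx1 (4.46), Meox2 (3.52), Dlx3 (3.33), Dlx6os1 (3.33) and Postn (3.16), and outside the rule 3110099E03Rik (3.70). Tnnt2 and Unc45b are heart and muscle genes, with PA2 means of 69.3 and 67.3 CPM at E9.0 against 0.123 and 0.336 at E10.5; their adjusted p was 0.083 to 0.11 without 1 embryo and 0.26 or more with edgeR, and that of Postn was 0.11 to 0.12 without 1 embryo.

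Against wildtype E9.5, 1267 genes passed (4721 at an unadjusted p under 0.05). Further toward PA1 at wildtype E10.5 were Tbx22 (-4.03), Alx4 (-3.97), Fgf4 (-3.77) and Rgs4 (-3.75). Further toward PA2 were Hmx1 (3.94), Dlx4os (2.95), Dlx4 (2.16), Dlx6os1 (2.05) and Meox2 (1.85), and outside the rule 3110099E03Rik (3.60). Fgf4 had an adjusted p of 1 with edgeR.

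Against wildtype E10.0, 65 genes passed (1533 at an unadjusted p under 0.05). Further toward PA1 at wildtype E10.5 were Rgs4 (-3.09), Osr2 (-2.52), Alx1 (-2.51), Fgf4 (-2.49) and Dlg2 (-2.38). Further toward PA2 were Csn3 (1.60), Snx31 (1.56), Sox9 (0.97) and Meis2 (0.44). Rgs4 had an adjusted p of 0.29 without embryo 1 and 0.16 without embryo 3, Sox9 of 0.078 to 0.23 without 1 embryo and 0.21 without the block, Meis2 of 0.15 without embryo 2, Snx31 of 0.056 without embryo 1 and 0.094 without embryo 3, and Alx1 of 0.052 without embryo 2 and 0.074 without embryo 3.

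Against E10.5 with the label Hoxa2-/-, 10 genes passed (1087 at an unadjusted p under 0.05). Further toward PA1 at wildtype E10.5 were Pitx1 (-2.01), Hs3st1 (-1.40), Hoxa2 (-1.27), Shox2 (-1.25) and Tle4 (-1.08). Further toward PA2 were Meis2 (0.87) and Errfi1 (0.62), and outside the rule 3110099E03Rik (2.96), Tcf24 (2.18) and 8430419K02Rik (1.11). Without the block the adjusted p was 0.36 for Errfi1, 0.092 for Hoxa2, 0.16 for Hs3st1, 0.23 for Pitx1 and 0.34 for Shox2. Without embryo 1 it was 0.12 for Hoxa2 and Tle4, 0.16 for Hs3st1 and 0.17 for Shox2, without embryo 2 it was 0.17 for Shox2 and Errfi1, and without embryo 3 it was 0.24 for Tle4 and Hs3st1 and 0.30 for Errfi1. With edgeR it was 0.62 for Tcf24 and 0.89 for 8430419K02Rik, and for the latter 0.47 with a pseudocount of 0.25.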

How the results depend on the processing

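The count of 421 genes stayed within 1.5 times, at 316 to 480, under both other pseudocounts, no filter, at least 5 CPM, median-of-ratios scaling and edgeR (432, of which 385 were among the 421). It moved to 280 with no replicate block, to 1320 with only the compared groups, where 402 of the 421 passed again and 16421 genes were tested on 2 residual degrees of freedom, and to 225 to 245 without 1 embryo. The test of the difference against E9.0 moved from 1074 to 617 without the replicate block and to 479 to 667 without 1 embryo, that against E9.5 from 1267 to 503 without the block and to 339 to 896 without 1 embryo, and that against E10.0 from 65 to 40 with edgeR and to 31 to 39 without 1 embryo. The count of 10 between the labels moved to 36 with a pseudocount of 5 and to 22 without a filter, and was 7 to 11 without 1 embryo. Only the compared groups could give no test against another stage. The cause of these moves was not tested, beyond fewer libraries when an embryo is left out. Of 115 single-gene results 66 kept direction and call under every alternative, and of 1213 gene and setting combinations 126 lost the call, 3 gained it (Hand1, Barx1 and 3110099E03Rik) and 0 reversed. The median-of-ratios scaling shifted the median arch difference by 0.01. With 3 embryos, genes near the floor of 0.155 to 0.166 CPM are limited by depth.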

Other observations

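The genes below were named after their values were seen, so their differences are descriptions. Along the imprinted region of chromosome 12, where genes are used from only the maternal or only the paternal copy, Dlk1, Meg3, Rtl1 and Rian were all lower in PA2. Dlk1 stood at 223, 309 and 265 CPM in PA1 and at 164, 112 and 155 in PA2, and Meg3, a noncoding RNA used from the maternal copy, at 44.2, 44.4 and 50.5 and at 17.1, 30.3 and 22.3. The log2 differences were -0.89, -1.0, -0.71 and -0.87, in PA1 and PA2 ranges that did not overlap. Adjusted p reached 0.49 for Dlk1 without embryo 2, 0.17 for Meg3 and 0.56 for Rtl1 without embryo 1, and 0.079 for Rian without embryo 3, and without the block it was 0.11 for Dlk1 and 0.19 for Rian.

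Genes of secreted factors and receptors lay on both sides. Rspo2 and Lgr6 (log2 difference -1.07), the gene for an R-spondin receptor, were both lower in PA2, and Lgr6 had an adjusted p of 0.13 without embryo 1. The chemokine gene Cxcl12 stood at 79.0, 94.4 and 95.5 CPM in PA1 and at 176, 225 and 163 in PA2. Genes of secreted BMP antagonists were found on both sides, with Nbl1 at 59.4, 83.8 and 55.0 CPM in PA1 and 16.6, 23.3 and 16.2 in PA2, and Chrdl1 at 15.7, 12.9 and 11.6 and at 39.8, 22.7 and 26.9.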
